A study of Danio rerio with 11 samples.

Results

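The genes of oxidative phosphorylation were described in fully grown ovarian follicles of zebrafish (Danio rerio) that carried different combinations of gonadotropin and gonadotropin receptor mutations. Genes were taken from the deposited table of raw counts by symbol: every gene named as a mitochondrially encoded subunit of complex I, III, IV or V, or by the ndufa, ndufb, ndufc, ndufs, ndufv, uqcr, sdh, cox4 to cox8 and atp5 prefixes. Of the 35889 genes in the table, 115 matched, and 109 of them had at least 10 counts in at least 3 libraries. The 109 comprise 13 mitochondrially encoded subunits, 82 nuclear subunits (35 of complex I, 4 of complex II, 7 of complex III, 20 of complex IV and 16 of complex V) and 14 nuclear genes that match by name but encode assembly factors, inhibitors or related proteins. The 6 matches left out were ndufb4, ndufs1, sdhda, uqcrb, ndufa4l2a and ndufa4l2b, none of which exceeded 15 counts in a library. Whether these low counts come from expression or from the gene annotation used was not tested. All 109 members also passed the count filter of the test described below.

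Messenger RNA was purified on poly-T beads from hand-picked follicles over 650 µm, which a 600 µm filter had retained, from fish of 180 days. The control group (3 libraries) was heterozygous at every locus (lhb+/-, lhcgr+/-, fshb+/- and fshr+/-). The lhb/lhcgr mutants (4 libraries) were lhb-/- and lhcgr-/-, with fshb+/- and fshr+/-. The fshb/lhcgr mutants (4 libraries) were fshb-/- and lhcgr-/-, with lhb+/- and fshr+/-. All 3 groups therefore shared heterozygosity at fshr, and there was no wild-type group. The kind of mutation at each locus is not given in the labels. Whether replicates came from different fish is not spelled out in the labels, so p-values measure the spread between these samples only. The comparisons address how follicles differ when lhcgr is lost together with lhb or with fshb.

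Oxidative phosphorylation passes electrons from NADH through complex I, or from succinate through complex II, to ubiquinone, then through complex III and cytochrome c to complex IV, which reduces oxygen. Complexes I, III and IV pump protons across the inner mitochondrial membrane, and complex V, the ATP synthase, uses the gradient to make ATP. The mitochondrial chromosome encodes core membrane subunits of complexes I, III, IV and V, all subunits of complex II are nuclear, and the oocyte is known for its large stock of mitochondria, which the embryo inherits.

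Library totals ran from 14179252 to 25484718 counts. lhcgr, which encodes the luteinising hormone receptor, was detected in every library, at 104 to 336 CPM (counts scaled to the library's TMM-adjusted size) in the controls, 115 to 188 in the lhb/lhcgr mutants and 102 to 171 in the fshb/lhcgr mutants, so its level does not check the genotype. lhb, the luteinising hormone beta subunit, stood at 19.7 to 38.1 CPM in the controls, 0.371 to 9.78 in the lhb/lhcgr mutants and 1.65 to 7.49 in the fshb/lhcgr mutants, and fshb did not exceed 0.409 CPM in any library. The fshb/lhcgr mutants, labelled lhb+/- like the controls, thus lay below all controls and within the range of the lhb-/- group. Their lhb level differed from that of the controls with the same lhb label, but a transcript level alone does not give the genotype. Whether libraries were mislabelled was not tested, and group names below are those of the labels, including where directions are drawn from the fshb/lhcgr mutants. All 10 listed oocyte markers, 9 granulosa markers and 6 theca markers were detected, as the labelled ovary would hold. Summed oocyte markers were 4261 to 6288 CPM in controls, 4676 to 6378 in lhb/lhcgr mutants and 5866 to 6483 in fshb/lhcgr mutants. Granulosa sums were 583 to 1409, 422 to 724 and 559 to 991 CPM in that order. Theca sums were 647 to 1041, 735 to 916 and 693 to 925 CPM. From controls to lhb/lhcgr mutants, mean CPM of oocyte genes rose for h1m (1573 to 2325), zar1, gdf9 and figla. It fell for buc (1441 to 1244), zp3b, zp2.1, bmp15, ddx4 and dazl. Of the theca genes, cyp11a1 (345 to 458), cyp17a1 and insl3 rose in mean CPM, while lhcgr, nr5a2 and star (25.6 to 8.03) fell. Among the granulosa genes, mean CPM from controls to lhb/lhcgr mutants fell for inha (543 to 291), nr5a1a and cyp19a1a. It rose for the other granulosa genes, such as fshr (12.4 to 46.4). Summed endothelial markers (6 of 6 genes detected) were 113 to 197 CPM in the controls, 66.0 to 69.8 in the lhb/lhcgr mutants and 93.1 to 180 in the fshb/lhcgr mutants. Summed erythrocyte markers (6 of 6) were 28.5 to 84.0, 64.1 to 139 and 97.2 to 179 CPM, and summed macrophage and neutrophil markers (7 of 7) were 11.4 to 33.1, 15.3 to 81.2 and 17.3 to 40.4 CPM, in the same order of groups. Among the endothelial genes, mean CPM from controls to lhb/lhcgr mutants fell for kdrl (73.7 to 25.9), flt1, cdh5 and pecam1. It rose for tie1 (9.14 to 12.9) and egfl7 (1.66 to 1.86). Muscle markers summed to at most 38.1 CPM and liver markers to at most 11 CPM, with the liver marker fabp10a at 0 counts throughout. The part of these cell types in the results below was not tested, and in bulk follicles fewer cells of a type and less RNA per cell cannot be told apart.

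The mitochondrially encoded subunits were among the most abundant messages in the RNA that the poly-T beads captured from the follicles. Whether capture differed between messages was not tested. By mean FPKM (counts per length and depth, as deposited), mt-co1, the catalytic subunit of complex IV, ranked 1 among all genes, and 12 of the 13 ranked within the first 16. In the controls mt-co1 averaged 20898 FPKM, mt-co2 14812, mt-atp6 13488, mt-cyb 9152 and mt-co3 8906. These encode the catalytic core of complex IV, the proton channel subunit of complex V and the cytochrome b of complex III. The complex I messages were lower per length, from 1621 FPKM for mt-nd3 to 3861 for mt-nd4. The lowest was mt-atp8, a small membrane subunit of complex V, at 340 FPKM in the controls. Its reading frame overlaps that of mt-atp6 on the same vertebrate transcript, and the deposited FPKM of mt-atp6 was on average 40.4 times that of mt-atp8 in the controls, 60.9 times in the lhb/lhcgr mutants and 76.4 times in the fshb/lhcgr mutants. The other overlapping pair, mt-nd4 and mt-nd4l, stood at ratios of 2.03, 1.91 and 1.93. How reads of overlapping genes were assigned, and whether strand was used, is not given in the sources used here. Values of mt-atp8, mt-nd4l and the opposite-strand mt-nd6 are therefore uncertain.

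Nuclear subunits lay far lower, with a median over 82 genes of 35 FPKM in the controls against 3304 for the 13 mitochondrial subunits. The ratio of these medians within a library was 85.0, 120 and 89.2 in controls 1 to 3. It was 26.0, 34.7, 50.5 and 39.1 in lhb/lhcgr mutants 1 to 4 and 131, 99.6, 130 and 60.8 in fshb/lhcgr mutants 1 to 4. All lhb/lhcgr mutant libraries thus had a smaller ratio than any library of the other groups. The mitochondrial median was the value of mt-nd2 in each group: 3304 FPKM in controls, 1740 in lhb/lhcgr and 4256 in fshb/lhcgr mutants. This ratio therefore rests on that message and does not describe all 13, whose summed share of counts overlapped between the groups. The highest nuclear subunit was atp5mc1, which encodes the proton-carrying c subunit of the ATP synthase, at 393 ± 37.4 FPKM in the controls (SD, n = 3). Of the 14 nuclear subunits with at least 100 FPKM on average, 7 belonged to complex V and 6 to complex IV.

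Within the other complexes, the most abundant nuclear subunits in mean FPKM over all libraries were ndufa11 of complex I (105), sdhc, a membrane anchor of complex II (55.2), uqcrh, the hinge protein of complex III (88.7), and cox4i1 of complex IV (174). The least abundant were ndufa9b (5.91), sdhb (16.2), uqcrc2a (20.2), ndufa4 (0.699) and, in complex V, atp5f1e (15). Complex II, the only complex without a mitochondrially encoded subunit, had a median of 39.5 FPKM in the controls, between complex III (35.1) and complex V (64.2). These differences between genes are levels per length, with no test.

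Where vertebrates have several genes for the same subunit, usually a single gene took most of the FPKM in the follicle. In the controls cox4i1 made up 96.9% of the FPKM of its family, with cox4i2 at 2.23% and cox4i1l at 0.886%. cox6a1 made up 95.9% against 4.09% for cox6a2, whose mammalian counterpart is the form of heart and skeletal muscle. cox7a3 held 76.3%, cox7a2a 22.1% and cox7a1 1.64%. The c subunit came from atp5mc1 (55.4%) and atp5mc3b (39.7%), with 4.99% from atp5mc3a. The families cox5a and cox8 were less uneven, with 67.1% for cox5aa against 32.9% for cox5ab and 59.5% for cox8a against 40.5% for cox8b. uqcrc2b gave 74.7% against 25.3% for uqcrc2a, and atp5if1a, an inhibitor of the ATP synthase and no subunit, 69.8% against 30.2% for atp5if1b. The single complex IV subunit 5b gene in the set, cox5b2, averaged 2.38 FPKM over all libraries. Genes under symbols outside the rule were not counted, so this level does not show whether subunit 5b is scarce. In the plot of related genes, the leading gene of each family except cox8 was the same in all 3 groups.

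**Figure D1:**
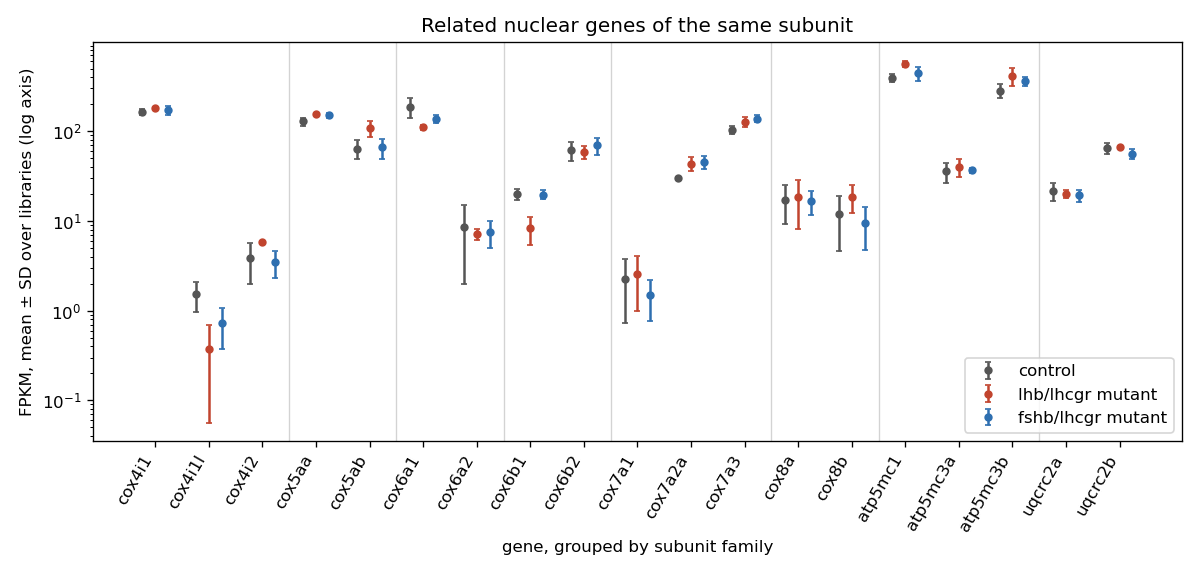
FPKM (log axis) of nuclear genes that encode forms of the same subunit, grouped by family, as mean ± SD over 3 control, 4 lhb/lhcgr mutant and 4 fshb/lhcgr mutant libraries. cox4i1 stood near 164 FPKM in the controls against 3.85 for cox4i2, and cox6b1 fell from 19.9 FPKM in the controls to 8.29 in the lhb/lhcgr mutants while cox6b2 was at 61.1 and 59.0.

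Of the mitochondrially encoded messages, 4 of 7 for complex I and both for complex V were lower in lhb/lhcgr mutant follicles than in control follicles. The other complex I messages and those of complexes III and IV did not pass the test. The lower messages include mt-atp8 and mt-nd6, whose values are uncertain as stated above. A gene was called when its edgeR p was under 0.05 after Benjamini-Hochberg adjustment across the 19421 genes tested. Of the 13 mitochondrial subunits 0 were called higher and 6 lower, against 2.89% of all genes called higher, 4.45% called lower and 7.34% in either direction. With an unadjusted p under 0.05 the counts were 0 higher and 8 lower, against 24.9% of all genes in either direction, and DESeq2 also called 0 higher and 6 lower, against 6.19% and 7.7% of all genes. All 13 log2 differences were negative, with a median of -0.73 against 0.01 over all genes tested. These 13 are not separate observations, since mt-atp8 and mt-atp6 share a transcript and all enter each library's mitochondrial share of counts. Counts over them are therefore not counts of independent results. CPM did not overlap between the groups for 7 of the 13, all lower in the mutants, against 22.8% of all genes in either direction, 11.2% higher and 11.6% lower.

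**Figure D2:**
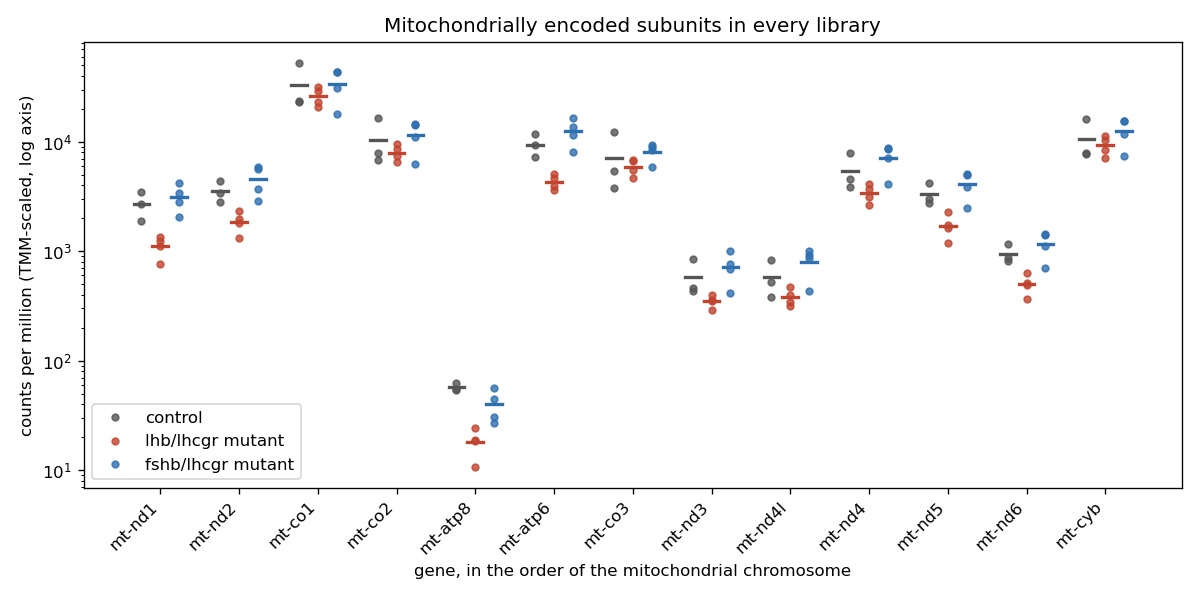
CPM (log axis, TMM-scaled) of the 13 mitochondrially encoded subunits in each of 11 libraries, in chromosome order, with bars for group means. Points of the lhb/lhcgr mutants lie below all controls for mt-nd1, mt-nd2, mt-nd3, mt-nd5, mt-nd6, mt-atp6 and mt-atp8, and overlap the controls for mt-co1, mt-co2, mt-co3, mt-cyb, mt-nd4 and mt-nd4l.

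The message of mt-atp8 (ENSDARG00000063910) stood at 62.0, 54.1 and 54.9 CPM in controls 1 to 3 and at 10.6, 18.5, 24.1 and 18.9 CPM in lhb/lhcgr mutants 1 to 4. The groups did not overlap, and the fit gave a log2 difference of -1.66 ± 0.28 (SE, adjusted p = 0.00697 by edgeR). It rests on 175 to 926 counts per library, far fewer than any other mitochondrial subunit. mt-atp6 (ENSDARG00000063911), the proton channel subunit, measured 7188, 11724 and 9286 CPM in the controls and 3585, 4691, 5046 and 3924 CPM in the lhb/lhcgr mutants. All 4 mutant values were below the lowest control, with a log2 difference of -1.12 ± 0.24 (adjusted p = 0.0175).

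Among complex I messages, mt-nd1 (ENSDARG00000063895), part of the membrane arm beside the ubiquinone site, measured 1899, 3443 and 2719 CPM in the controls and 760, 1240, 1347 and 1107 CPM in the lhb/lhcgr mutants. The groups did not overlap, and the log2 difference was -1.27 ± 0.27 (adjusted p = 0.0161). mt-nd2 (ENSDARG00000063899) and mt-nd5 (ENSDARG00000063921), proton-pumping subunits of the membrane arm, fell by 0.93 ± 0.27 (adjusted p = 0.0490) and 0.97 ± 0.27 (adjusted p = 0.0429) on the log2 scale. mt-nd2 had 2816, 4339 and 3416 CPM in the controls and 1320, 1800, 2328 and 1956 in the mutants. For mt-nd5 the values were 3024, 4220 and 2775 CPM in the controls and 1198, 1628, 2269 and 1726 in the mutants. Neither gene overlapped between the groups. mt-nd6 (ENSDARG00000063922), also of the membrane arm, measured 873, 1162 and 806 CPM in the controls and 367, 493, 638 and 508 CPM in the mutants, a log2 difference of -0.92 ± 0.25 (adjusted p = 0.0421) without overlap. The remaining complex I messages gave log2 differences of -0.73 for mt-nd3, -0.67 for mt-nd4 and -0.60 for mt-nd4l, with adjusted p of 0.120, 0.159 and 0.220.

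These calls differed in how they held when a single library was left out. That of mt-atp8 held in all 11 such fits, with adjusted p from 0.00554 to 0.0286. Leaving out a library does not address how reads of overlapping genes were assigned, so the mt-atp8 values remain uncertain. Those of mt-nd1 and mt-atp6 were lost without lhb/lhcgr mutant 4, at adjusted p of 0.0554 and 0.0633. The calls of mt-nd5 and mt-nd6 were lost when control 1 or 2, mutant 1, 2 or 4 of this group, or fshb/lhcgr mutant 1 or 2 was left out, at adjusted p between 0.0510 and 0.113. That of mt-nd2 held only when fshb/lhcgr mutant 3 or 4 was left out, and otherwise its adjusted p stood between 0.0530 and 0.123. The count of 6 lower became 1 without lhb/lhcgr mutant 4 and 3 without any of controls 1 and 2, lhb/lhcgr mutants 1 and 2, and fshb/lhcgr mutants 1 and 2. Without lhb/lhcgr mutants 3 and 4 together, the pair of libraries closest to each other, it became 1, a setting chosen after the data were seen.

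The messages of complexes III and IV overlapped between the groups. mt-co1 (ENSDARG00000063905) measured 23320, 52797 and 22960 CPM in the controls and 20716, 31787, 29081 and 22990 CPM in the lhb/lhcgr mutants, a log2 difference of -0.34 ± 0.34 (adjusted p = 0.594). Control 2 was above every mutant library, and the other controls lay within the mutants' range. mt-cyb (ENSDARG00000063924) had 7689, 16283 and 7947 CPM in the controls and 7164, 11312, 10284 and 8373 CPM in the mutants, again with control 2 on its own, and a log2 difference of -0.20 ± 0.31 (adjusted p = 0.750). mt-co2 and mt-co3 gave -0.39 and -0.28, with adjusted p of 0.503 and 0.655. Without control 2 the log2 differences of all 4 turned positive, to 0.18 for mt-co1, 0.12 for mt-co2, 0.36 for mt-co3 and 0.25 for mt-cyb. The difference between these 4 messages and the 9 of complexes I and V was not tested.

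Control 2 set much of the spread of the controls. The 13 mitochondrial subunits together took 6.19%, 12.2% and 6.91% of the counts in controls 1 to 3, 5.28%, 7.67%, 7.53% and 6.03% in lhb/lhcgr mutants 1 to 4, and 11.3%, 9.32%, 11.5% and 6.0% in fshb/lhcgr mutants 1 to 4. Total mitochondrial share therefore overlapped between all groups. Its balance did not overlap for the lhb/lhcgr mutants. The log2 ratio of mt-nd and mt-atp counts to mt-co and mt-cyb counts was -1.05, -1.51 and -0.81 in controls 1 to 3. The 4 lhb/lhcgr mutants had ratios of -1.89, -2.04, -1.72 and -1.76, and the 4 fshb/lhcgr mutants had -1.05, -0.97, -0.92 and -0.82. Each lhb/lhcgr mutant library lay below every other library. This ratio is taken within a library, so no scaling factor between libraries enters it, but differences by gene length within a library are not removed. All 6 messages called lower are on the mt-nd and mt-atp side of the ratio. Its separation of the same libraries is therefore no independent support for those calls.

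The same shift can be read message by message as a share of all mitochondrial subunit counts, where a lower share of some messages forces a higher share of others. mt-atp6 held 8.86% to 13.7% in the controls, 6.38% to 7.24% in the lhb/lhcgr mutants and 11.3% to 13.8% in the fshb/lhcgr mutants. mt-cyb held 11.7% to 12.3%, 14.4% to 15.4% and 12.3% to 12.8%. mt-nd1 held 2.6% to 4.02%, 1.54% to 1.93% and 2.79% to 3.52%. Over the 13 messages, the lhb/lhcgr mutants overlapped neither other group in 7, with lower shares in 5 (mt-nd1, mt-nd3, mt-nd4, mt-nd5 and mt-atp6) and higher shares in mt-cyb and mt-co1. In the other 6, mt-nd2, mt-nd4l, mt-nd6, mt-co2, mt-co3 and mt-atp8, they overlapped at least 1 of the groups. No share over all genes applies to this count, and the 13 shares depend on each other. Some gaps were narrow: mt-nd5 held at most 3.1815% in the lhb/lhcgr mutants and at least 3.18798% in the controls. mt-co1 held at least 40.1% in the lhb/lhcgr mutants and at most 39.9% in the controls.

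**Figure D3:**
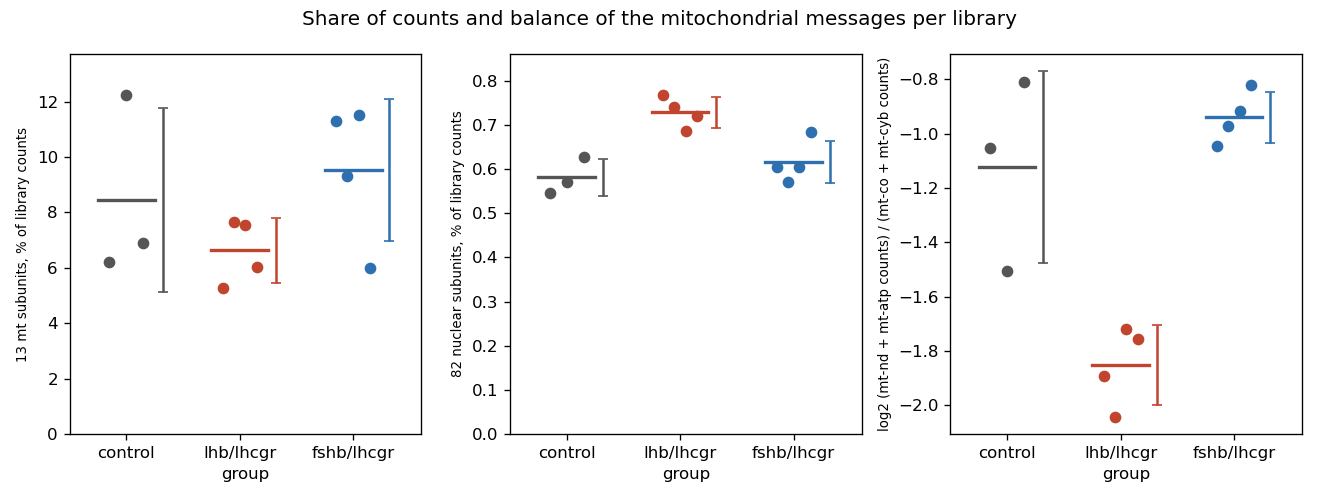
Percent of library counts in the 13 mitochondrial subunits (left) and the 82 nuclear subunits (middle), and the log2 ratio of mt-nd plus mt-atp to mt-co plus mt-cyb counts (right), per library, with group means as bars and SD as whiskers. The 4 lhb/lhcgr mutants lie between -2.04 and -1.72 on the right, below all other libraries, and between 0.685% and 0.768% in the middle. Percentages are of raw counts, without TMM scaling.

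Most nuclear subunits did not pass the test in lhb/lhcgr mutants, and those that did moved in both directions. Of 82, 5 were higher, 2 lower and 75 not called, beside 2.89% of all genes higher, 4.45% lower and 7.34% in either direction. The 7 edgeR calls in 82 genes are close to the last of these shares, so their total does not set the class apart. DESeq2 called 18 higher and 2 lower, 7 of them the edgeR calls, beside its 6.19% higher and 7.7% lower of all genes. The median log2 difference was 0.27 against 0.01 over all genes tested, with 64 positive and 18 negative, and 32 of the 82 did not overlap between the groups (22.8% of all genes). The 82 together took 0.545%, 0.571% and 0.627% of counts in the controls and 0.768%, 0.740%, 0.685% and 0.720% in the lhb/lhcgr mutants, without overlap. These are shares of raw counts without TMM, in which abundant genes such as atp5f1b weigh most. Scaled by library size only, the median log2 difference of all genes was itself 0.12. By complex, the median log2 difference was 0.34 for complex I, 0.04 for II, 0.25 for III, 0.17 for IV and 0.35 for V.

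The 4 higher complex I genes, of 35 tested and beside 2.89% of all genes called higher, encode accessory subunits. ndufb9 (ENSDARG00000041314), of the membrane arm, measured 32.1, 40.2 and 39.2 CPM in the controls and 68.8, 54.5, 65.6 and 62.0 CPM in the lhb/lhcgr mutants. Every mutant library was above every control, with a log2 difference of 0.75 ± 0.16 (adjusted p = 0.0160). ndufb7, of the same arm, rose by 0.77 ± 0.18 (adjusted p = 0.0242). In the matrix arm, ndufs4 rose by 0.79 ± 0.21 (adjusted p = 0.0377) and ndufa5 by 0.86 ± 0.24 (adjusted p = 0.0421). None of these overlapped between the groups. Of the 35 nuclear complex I subunits, the other 31 were not called.

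In complex V, atp5meb (ENSDARG00000068940), one of the zebrafish genes for the dimer-stabilising subunit e, measured 33.3, 41.4 and 44.6 CPM in the controls and 59.2, 57.5, 60.6 and 73.5 CPM in the mutants. The groups did not overlap, and the log2 difference was 0.66 ± 0.16 (adjusted p = 0.0283). The most abundant nuclear subunit, atp5mc1, had 323, 327 and 385 CPM in the controls and 550, 453, 482 and 495 in the mutants, but its log2 difference of 0.52 ± 0.17 was not called (adjusted p = 0.0745). In complex II 0 of 4 and in complex III 0 of 7 genes were called by edgeR, against 7.34% of all genes. At an unadjusted p under 0.05 these counts were 0 and 3, against 24.9% of all genes. DESeq2 called 0 and 2, against 6.19% of all genes higher and 7.7% lower.

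Both lower nuclear genes, 2 of 82 beside 4.45% of all genes called lower, encode complex IV subunits. cox6a1 (ENSDARG00000022438), a small accessory subunit, measured 147, 244 and 225 CPM in the controls and 115, 117, 121 and 131 CPM in the lhb/lhcgr mutants, a log2 difference of -0.76 ± 0.17 (adjusted p = 0.0219) without overlap. cox6b1 (ENSDARG00000045230), which faces the intermembrane space, measured 12.8, 10.9 and 14.7 CPM in the controls and 2.6, 6.79, 6.13 and 5.84 CPM in the mutants, a log2 difference of -1.26 ± 0.31 (adjusted p = 0.0293). These groups also did not overlap. Its related gene cox6b2 was the more abundant form and was not called, with a log2 difference of -0.06 ± 0.21 (adjusted p = 0.909), so that cox6b1 went from 25.1% of the family's FPKM in the controls to 12.3% in the mutants. For cox6a2 the log2 difference was -0.25 ± 0.44 (adjusted p = 0.779). cox5ab had 31.5, 51.7 and 48.5 CPM in the controls against 80.6, 91.4, 57.1 and 66.7, without overlap, but was not called (0.75 ± 0.24, adjusted p = 0.0717). The lowest nuclear value, -2.0 ± 0.89 for cox4i1l (adjusted p = 0.180), rests on at most 24 counts in a library.

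All of the 7 nuclear calls were lost in some fit without a single library. Without lhb/lhcgr mutant 4, 0 nuclear subunits were called. Without control 1 only 1 lower gene was called, and there were 4 calls without mutant 1 or 3 of this group. ndufb9 lost its call when control 1 or mutant 4 of this group was left out (adjusted p 0.0531 to 0.0605), cox6b1 without control 1, control 3 or the same mutant (0.0704 to 0.0798), and atp5meb without control 1, mutant 3 or mutant 4 (0.0513 to 0.103). cox6a1 lost it without control 2, control 3, mutant 1 or mutant 4 (0.0528 to 0.0574), and ndufb7 without control 1, control 2, mutant 1 or mutant 4 (0.0518 to 0.0904). For ndufs4 the libraries were controls 1 and 2 and all 4 mutants (0.0634 to 0.139). For ndufa5 they were controls 1 and 3, mutants 2 to 4 and fshb/lhcgr mutants 1 and 2 (0.0514 to 0.153).

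Gene length moved with the nuclear result. Of the 82 nuclear subunits, 75 were shorter than the median gene tested, and their median length was 0.421 times that of all genes. The slope on length of each library's log2 CPM minus the mean of all libraries, over the genes tested with above-median expression, was 0.204, 0.136 and 0.0619 per doubling of length in controls 1 to 3. The slopes of lhb/lhcgr mutants 1 to 4 were -0.162, -0.110, -0.00306 and -0.0900, and those of fshb/lhcgr mutants 1 to 4 were -4.82e-05, -0.000168, -0.0180 and -0.0183. With a gene length term in each library's offset, the nuclear median went from 0.27 to -0.02, with 40 positive and 42 negative. Then 0 nuclear subunits were higher and 2, cox6a1 and cox6b1, were lower. The mitochondrial median went from -0.73 to -1.12 and the calls from 6 to 7 lower. Over all genes tested, the Spearman correlation of the log2 difference with length was -0.239 without the term and 0.0848 with it. Over the 13 mitochondrial subunits it was 0.269 without the term and 0.5 with it, so the term did not reduce their relation to length. Whether the term suits the mitochondrial messages was not tested. The mitochondrial subunits are short too, with a median length 0.331 times that of all genes. Whether length itself sets the nuclear shift was not tested.

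**Figure D4:**
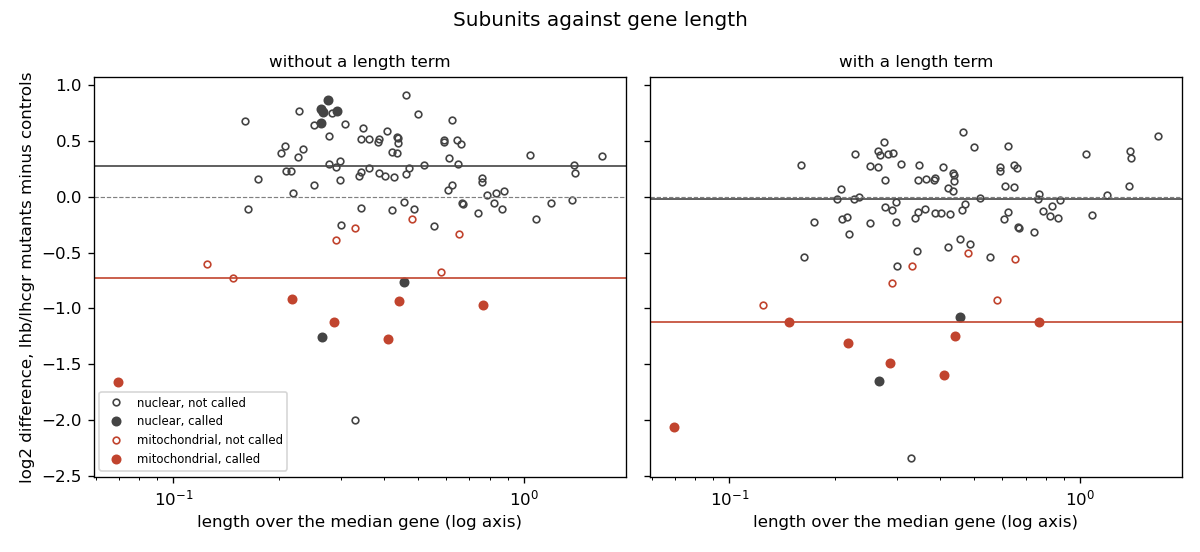
Log2 difference of lhb/lhcgr mutants minus controls (vertical) against gene length relative to the median gene (horizontal, log axis), without and with a length term, for 82 nuclear and 13 mitochondrial subunits. Filled points passed the adjusted threshold and lines mark class medians, which were 0.27 and -0.73 without the term and -0.02 and -1.12 with it.

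Among the 14 members that are not subunits, 2 were higher in the lhb/lhcgr mutants and 0 lower by edgeR and by DESeq2. Of all genes, edgeR called 2.89% higher and 4.45% lower, and DESeq2 6.19% and 7.7%. At an unadjusted p under 0.05, 4 of the 14 were higher and 0 lower, against 24.9% of all genes in either direction. ndufaf6, a complex I assembly factor, had 5.96, 11 and 11.1 CPM in the controls and 16.1, 20.5, 20.6 and 16.4 CPM in the mutants, a log2 difference of 0.98 ± 0.27 (adjusted p = 0.0424) without overlap. The call was lost without control 1, any lhb/lhcgr mutant, or fshb/lhcgr mutant 1, 3 or 4 (adjusted p 0.0505 to 0.149). sdhaf2, which helps insert flavin into sdha, had 10.5, 10.4 and 16.1 CPM in the controls and 23.0, 15.8, 27.3 and 25.8 in the mutants. Control 3 lay above mutant 2, and the log2 difference of 0.89 ± 0.26 (adjusted p = 0.0496) held only without control 3 or lhb/lhcgr mutant 2.

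Other genes that serve the same complexes were taken from lists outside the symbol rule. In lhb/lhcgr mutants 4 of 31 complex II to IV assembly genes rose and 0 fell, 1 of 4 complex V assembly genes rose and 3 of 18 mitochondrial DNA replication and nucleoid genes rose, beside 2.89% of all genes called higher and 4.45% lower. pet100, a complex IV assembly factor, measured 31.7 ± 5.41 CPM in the controls and 60.9 ± 8.32 in the mutants (log2 0.94 ± 0.20, adjusted p = 0.0153), and higd2a and coa3a, of the same pathway, rose by 0.94 and 0.76. The fourth, uqcc4 of complex III assembly, rose by 0.71 and is named after its value was seen. tmem70, an ATP synthase assembly factor, rose by 0.72 (adjusted p = 0.0338). The pyrimidine nucleotide carrier slc25a33 rose from 64.6 ± 10.3 to 136 ± 14.9 CPM (log2 1.07 ± 0.19, adjusted p = 0.00849), with mgme1 at 0.73 and primpol at 0.63. dlat, a pyruvate dehydrogenase subunit, fell by 0.69 on the log2 scale (adjusted p = 0.0322). Results for these listed genes with the length term or without single libraries are not given here, nor are those of ndufaf6 and sdhaf2 with the length term. Over all genes, the calls went from 562 to 312 higher and from 864 to 503 lower with that term.

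The 6 other lists with genes tested held 79 genes with 0 calls by edgeR: complex III and cytochrome c, complex I assembly, mitochondrial transcription and RNA processing, nuclear regulators of respiratory genes, coenzyme Q synthesis, and carriers, porins and import. At an unadjusted p under 0.05, 12 of the 79 were higher and 2 lower, against 24.9% of all genes in either direction. DESeq2 called 5 higher and 1 lower, against 6.19% and 7.7% of all genes. Mitochondrial ribosomal RNA was not analysed here.

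In fshb/lhcgr mutants no subunit of either genome passed the test against the controls. edgeR called 0 of 13 mitochondrial and 0 of 82 nuclear subunits, against 0.0154% of all genes higher, 0.0566% lower and 0.0721% in either direction, and DESeq2 also called 0 and 0, against 0.649% of all genes higher and 0.788% lower. With an unadjusted p under 0.05 there were 0 mitochondrial and 12 nuclear subunits (11 higher, 1 lower), against 11.8% of all genes. The median log2 difference was 0.29 for the mitochondrial and 0.19 for the nuclear subunits, against -0.03 over all genes tested. CPM did not overlap between the groups for 0 mitochondrial and 12 nuclear subunits, against 10.4% of all genes, 5.26% higher and 5.16% lower.

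The mitochondrial values of the fshb/lhcgr mutants overlapped those of the controls. mt-nd1 measured 3391, 2789, 4221 and 2067 CPM in fshb/lhcgr mutants 1 to 4, with control 1 below all of them and the other controls within their range, and a log2 difference of 0.21 ± 0.27 (adjusted p = 0.804). mt-atp6 measured 13726, 11489, 16351 and 8113 CPM (0.40 ± 0.25, adjusted p = 0.550). mt-atp8 was the one mitochondrial subunit with a negative log2 difference, -0.52 ± 0.28 (adjusted p = 0.487), at 44.8, 30.8, 56.4 and 27.2 CPM. mt-co1 gave 43198, 30966, 43153 and 17944 CPM (0.03 ± 0.34, adjusted p = 0.982). In each of these the fourth library was the lowest. With the length term the medians became 0.01 for the mitochondrial and -0.02 for the nuclear subunits.

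Nuclear subunits with low counts showed the widest log2 differences. ndufa4, a complex IV subunit by present assignment, reached 2.30 ± 0.98 (adjusted p = 0.388) from at most 50 counts in a library, while its relative ndufa4l made up 99.4% of the FPKM of this pair in the controls and 97.7% in the fshb/lhcgr mutants. atp5f1b, the catalytic beta subunit of the ATP synthase, chosen after its values were seen, measured 720, 558, 646 and 747 CPM, against 705, 694 and 710 in the controls. Its log2 difference was -0.07 ± 0.15 (adjusted p = 0.884). Among genes outside the symbol rule, edgeR called 0 of 149, against 0.0721% of all genes in either direction. At an unadjusted p under 0.05, 8 were higher and 3 lower, against 11.8% of all genes. DESeq2 called 1 higher, against 0.649% of all genes higher and 0.788% lower.

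**Figure D5:**
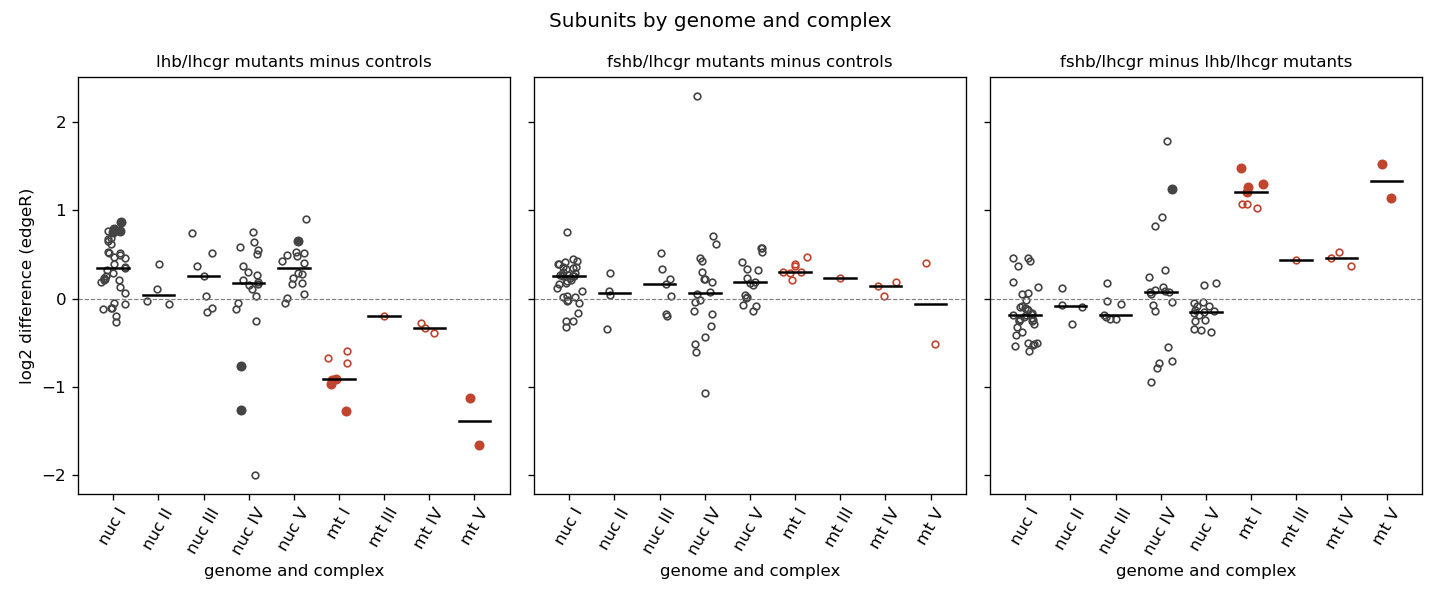
Log2 differences (vertical) of the subunits by genome and complex in the 3 comparisons. Each point is a gene, filled where the adjusted p was under 0.05, and bars mark medians. The mitochondrial complex I and V genes had medians of -0.92 and -1.39 in lhb/lhcgr mutants minus controls and of 1.21 and 1.33 in fshb/lhcgr minus lhb/lhcgr mutants.

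The mutants were also compared directly, with positive values higher in fshb/lhcgr mutants. The comparisons share groups, so the lhb/lhcgr mutant values above also enter here and give no independent support. The 13 mitochondrial messages are not separate observations here either. Of the 13 mitochondrial subunits 6 were higher and 0 lower, against 1.45% and 0.917% of all genes and 2.37% in either direction. At an unadjusted p under 0.05, 9 were higher and 0 lower, against 18% of all genes in either direction, and DESeq2 called 9 higher and 0 lower, against 3.99% and 3.22%. The median log2 difference was 1.07 against -0.02 over all genes, and 8 of 13 did not overlap between the groups, all higher in the fshb/lhcgr mutants, against 12.9% of all genes in either direction, 6.54% higher and 6.38% lower.

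mt-atp6 rose by 1.53 ± 0.23 (adjusted p = 0.00550), with all fshb/lhcgr mutants (8113 to 16351 CPM) above all lhb/lhcgr mutants (3585 to 5046 CPM). mt-nd1 rose by 1.49 ± 0.25 (adjusted p = 0.00958), from 760 to 1347 CPM up to 2067 to 4221 CPM, again without overlap. These calls held in all 11 fits without a single library. mt-nd2, mt-nd5 and mt-nd6 rose by 1.29, 1.26 and 1.21 (adjusted p 0.0190, 0.0215 and 0.0198) and lost the call without lhb/lhcgr mutant 4 or fshb/lhcgr mutant 1 or 3 (0.0631 to 0.0752). mt-atp8 rose by 1.14 ± 0.26 (adjusted p = 0.0400) and lost it without any lhb/lhcgr mutant or without fshb/lhcgr mutant 1 or 3 (0.0555 to 0.118). The remaining complex I messages, mt-nd3, mt-nd4 and mt-nd4l, gave 1.03, 1.07 and 1.07, just short of the threshold with adjusted p of 0.0557, 0.0528 and 0.0573. The 4 messages of complexes III and IV ranged from 0.37 to 0.53, with adjusted p from 0.388 to 0.592.

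The count of 6 became 2 without lhb/lhcgr mutant 4 or fshb/lhcgr mutant 1 or 3. It became 9 without control 1, control 2 or fshb/lhcgr mutant 4, and 0 without lhb/lhcgr mutants 3 and 4 together. fshb/lhcgr mutant 4 stood apart in its group: the median deviation of its mitochondrial subunits minus that of its nuclear subunits was -0.27 on the log2 scale, against 0.74, 0.60 and 0.72 in the other 3.

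Of the 82 nuclear subunits 1 was higher in the fshb/lhcgr mutants than in the lhb/lhcgr mutants and 0 lower. The counts at an unadjusted p under 0.05 were 3 higher and 10 lower, against 18% of all genes in either direction. DESeq2 called 2 higher and 3 lower, against 3.99% and 3.22% of all genes. For edgeR the shares of all genes were 1.45% higher and 0.917% lower. The higher gene by edgeR was cox6b1, at 13, 11.2, 14.5 and 12.1 CPM in the fshb/lhcgr mutants and 2.6, 6.79, 6.13 and 5.84 CPM in the lhb/lhcgr mutants. The groups did not overlap, and the log2 difference was 1.25 ± 0.29 (adjusted p = 0.0414). It lost the call when control 3, either of lhb/lhcgr mutants 3 and 4, or any fshb/lhcgr mutant was left out (adjusted p 0.0517 to 0.110). The nuclear median was -0.14, with 24 positive and 58 negative, and -0.03 with the length term. None of the 14 members that are not subunits was called by edgeR or DESeq2, or had an unadjusted p under 0.05. Of the 149 genes outside the symbol rule edgeR called 0, and DESeq2 called 2 higher and 4 lower. At an unadjusted p under 0.05, 4 were higher and 14 lower. The same shares of all genes apply to these counts.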

How the data were processed

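Counts per gene were used as the authors deposited them, and FPKM values as deposited served for levels between genes. The authors' deposited tables of each mutant against the controls hold group means (normalised signal), log2 fold changes and unadjusted p-values, with DESeq2 1.20.0 listed in the submitters' processing notes. The log2 fold changes of the authors' deposited table differed from those below by at most 0.0269 for the members. The aligner, counting tool, strand use and genome build were not given in the sources used here. No coordinates or sequences are printed. Of the 35889 rows, 3988 have no Ensembl identifier.

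Counts were tested with edgeR 4.0.16 in R 4.3.3 (filterByExpr with minimum count 10 and minimum total 15, TMM, robust quasi-likelihood fit, 1 mean per group, all 11 libraries, 2-sided). Benjamini-Hochberg adjustment ran over all 19421 genes tested, with a threshold of 0.05. The common biological coefficient of variation was 0.384. Relative gene lengths were taken from the ratio of deposited counts to FPKM. The steps were checked on simulated data. CPM are TMM-scaled, and ± after a log2 difference is its SE. Totals of at least 14179252 counts limit precision mostly for members with few counts.

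The groups are those of the labels. Alternatives were other scalings (RLE, library size only, TMM without mitochondrial genes), other filters (none, 1 CPM in 3 libraries), DESeq2 1.42.0, limma-voom (limma 3.58.1), only the groups compared, a gene length offset, a replicate block and leaving out each library. Leaving out the closest pair of libraries was added after seeing the data. No library pair of a group agreed within sampling noise. Named are all mitochondrial subunits, called nuclear members, the highest and lowest nuclear FPKM of each complex, related subunit genes and up to 3 called genes per other list. One list's count and a gene of it are not reported here. Genes named beyond these were picked with their values in view. The members, lists and tests were chosen with earlier results of these data known.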

Additional observations from a re-analysis of the deposited data

Results flagged for a closer look

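Of 106 sets of 4 libraries examined for a single library far from the other 3, 7 stood out by Dixon's criterion, against about 1 in 20 that chance alone would give. In lhb/lhcgr mutant libraries these were atp5f1e at 53.4 CPM in library 4 (8.32 to 13 in the others), cox5b2 at 0.245 CPM in library 2 (1.75 to 1.93), cox7a3 at 69.8 CPM in library 3 (90.5 to 91.5) and atp5if1b at 11.7 CPM in library 1 (18.4 to 19.1). In fshb/lhcgr mutant libraries they were sdhaf2 at 25.7 CPM in library 3 (18.4 to 19.2), sdhb at 46.9 CPM in library 2 (58.9 to 60.3) and the median deviation of mitochondrial minus nuclear subunits at -0.27 on the log2 scale in library 4 (0.60 to 0.74).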

How the results depend on the processing

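In lhb/lhcgr mutants against controls, the 6 mitochondrial calls became 3 with library size only and 1 without lhb/lhcgr mutants 3 and 4. They became 4 with only the groups compared and 7 with the length offset, and ranged from 1 to 6 with each library left out. The 7 nuclear calls became 14 (12 higher, 2 lower) with library size only, which moved the median of all genes to 0.12, 20 with DESeq2, 2 (both higher) with only the groups compared, 2 (both lower) with the length offset and 0 without the closest pair, and ranged from 0 to 8 with each library left out. The nuclear median became 0.38 with library size only and -0.0160 with the length offset. Between the mutants, the 6 mitochondrial calls became 0 without the closest pair and ranged from 2 to 9 with each library left out. They became 9 with TMM without mitochondrial genes, DESeq2, only the groups compared or the length offset. With no filter they became 8, with RLE 7 and with limma-voom 5. The 1 nuclear call became 5 with DESeq2, 2 with the length offset and 0 without the closest pair, and ranged from 0 to 1 with each library left out. With library size only the 1 call was another gene, lower in the fshb/lhcgr mutants. The nuclear median became -0.26 with library size only, where the median of all genes was -0.15, and -0.0316 with the length offset. In fshb/lhcgr mutants against controls both counts of calls were 0 under every alternative, and the nuclear median became -0.0223 with the length offset. The mitochondrial medians kept their sign under all alternatives, from -1.12 to -0.36 in the first comparison. In fshb/lhcgr mutants against controls, however, the median went from 0.29 to 0.00805 with the length offset, with 7 positive and 6 negative. The cause of these changes was not tested.

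Uncalled mitochondrial values reversed in places. With the length offset, fshb/lhcgr mutants minus controls gave -0.0380 for mt-nd3, -0.0397 for mt-nd6, -0.0673 for mt-co1, -0.16 for mt-co2 and -0.0590 for mt-co3. With each library left out, this comparison ranged from -0.16 to 0.55 for mt-co1, from -0.0662 to 0.65 for mt-co2 and from -0.12 to 0.82 for mt-co3. lhb/lhcgr mutants minus controls ranged from -0.38 to 0.25 for mt-cyb, -0.53 to 0.18 for mt-co1, -0.61 to 0.12 for mt-co2 and -0.58 to 0.36 for mt-co3.

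Deviations of same-numbered libraries of different groups correlated at r from -0.0844 to 0.122, within the range of differently numbered ones (-0.187 to 0.144). The replicate numbers are those of the sample titles, and pairing by any other number was not tested. With the replicate number as a block, the mitochondrial calls in lhb/lhcgr mutants became 3 and the nuclear calls 2 (1 higher, 1 lower), the nuclear call between the mutants became 0, and the 6 mitochondrial calls between the mutants did not change in number.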
